A study of Mus musculus with 4 samples.

Results

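Genes of fatty acid and phospholipid metabolism were examined in mouse Ly6C-high monocytes that had been exposed to all-trans retinoic acid during the first day of a culture that steers them toward dendritic cells. The genes were 53 enzymes, transporters, lipid droplet proteins and apolipoproteins, taken by name, and each was read from the array probe sets that carry its symbol and no other. Under that rule 49 genes with 53 probe sets were found, of 22180 genes with such a probe set and 39720 probe sets tested. Acsl1, Acsl3, Cpt1b and Scd2 were not analysed here, the last 3 because they are listed only on probe sets that also carry another symbol.

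The cells were sorted from bone marrow pooled from 3 mice, and every culture contained interleukin 4 and GM-CSF at 20 ng of each per ml. At the start of culture they received retinoic acid at 100 nM (2 arrays) or the solvent DMSO (2 arrays), and RNA was taken after 24 h. Strain, sex and age of the mice were not given in the sources used here. Nothing in the labels says that replicates came from separate cultures or pools, so the p-values cover the spread among these arrays alone, and that spread may be technical.

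Fatty acids are built by acetyl-CoA carboxylase and fatty acid synthase, lengthened by elongases and given double bonds by desaturases. After coupling to coenzyme A they are burned in mitochondria and peroxisomes, stored as triglyceride in lipid droplets, or placed into phospholipids, whose acyl chains are exchanged by phospholipases A2 and lysophospholipid acyltransferases. In macrophages and dendritic cells these routes supply membrane, energy and the arachidonic acid from which eicosanoids are made. Retinoic acid acts through nuclear receptors that pair with RXR, a partner also used by the lipid-sensing PPAR and LXR receptors.

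The values are log2 intensities per probe set, and a difference is the mean with retinoic acid minus the mean with DMSO. A gene is written of as having risen or fallen where limma's adjusted p, over all 39720 probe sets, was under 0.05. Median intensities were 80.0 to 81.8 on the 4 arrays, and over all probe sets the median absolute difference between replicates was 0.104 with DMSO and 0.114 with retinoic acid. A level of 6.35, the 95th percentile of 1405 olfactory and vomeronasal receptor probe sets, served as a guide to dim signals. Of 12 monocyte and macrophage markers, all lay above it in both groups, with summed intensities of 30711 and 30896 with DMSO and 32600 and 33546 with retinoic acid, and the myeloid transcription factor gene Spi1 fell. The 6 dendritic cell markers summed to 7302 and 7505 with DMSO and 5222 and 5338 with retinoic acid: Zbtb46 and Ciita fell and Dpp4 rose. Granule genes shared by neutrophil and monocyte precursors, such as Elane and Mpo, lay well above the dim level in both groups. The 10 neutrophil markers summed to 16473 and 17294 against 16376 and 16910. Cxcr2 fell, and Retnlg rose but lay under the dim level in both groups. Of 33 measured markers of other cells, Cd79b of B cells (list sum 314 and 317 against 401 and 406) and Siglecf of eosinophils (461 and 469 against 614 and 625) rose. The 7 markers of adipocytes and stroma, cells rich in lipid genes, summed to 523 and 540 against 541 and 591 with none called and Col1a1, Col1a2, Plin1 and Pdgfrb above the dim level in at least 1 group. No marker was listed at 0, the lowest intensity being 16.9. Whether these markers have a part in the lipid gene results was not tested. In such mixed RNA, fewer cells of a type and less RNA per cell cannot be told apart.

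Pla2g4a, which frees arachidonic acid from membranes, Apoc2, the activator of lipoprotein lipase, and Mgll, which splits monoacylglycerol, rose 1.85-fold, 1.76-fold and 1.64-fold. The desaturase gene Fads3, the elongase gene Elovl7 and the peroxisomal oxidase gene Acox3 fell, being 2.39-fold, 2.24-fold and 1.58-fold lower. So 3 of 49 genes rose, against 1.28% of all 22180 genes, 3 fell, against 1.79%, and 43 did not pass (limma, 2 arrays per group). In either direction 6 of 49 passed, against 3.07% of all genes and 2.09% of all probe sets. Limma's unadjusted p was under 0.05 for 19 of the 49 genes and for 5335 of the 39720 probe sets. These shares also stand beside the counts by role and list below, which rest on few genes each. The median difference of the 49 genes was -0.04 and their median absolute difference 0.18, beside 0.009 and 0.10 over all genes. Only 12772 of the 22180 genes lie above the dim level, while 4 of the 49 were under it in both groups. When only probe sets above that level were tested, 8 of these lipid genes passed, against 7.95% of the 12772.

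These 6 calls rest on both arrays of each group and on leaving out 1625 unnamed probe sets with a constant value. With those kept, or with any 1 array left out, none of the 6 calls held. The differences of the 6 called genes kept their sign in each of 12 other settings, which could hardly have come out otherwise. Their arrays do not overlap between groups, so leaving out 1 array cannot reverse a sign. Several other settings alter only the test and leave the difference as it is. With 2 arrays per group, the smallest p of an exact two-sided permutation test is 0.333.

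**Figure D1:**
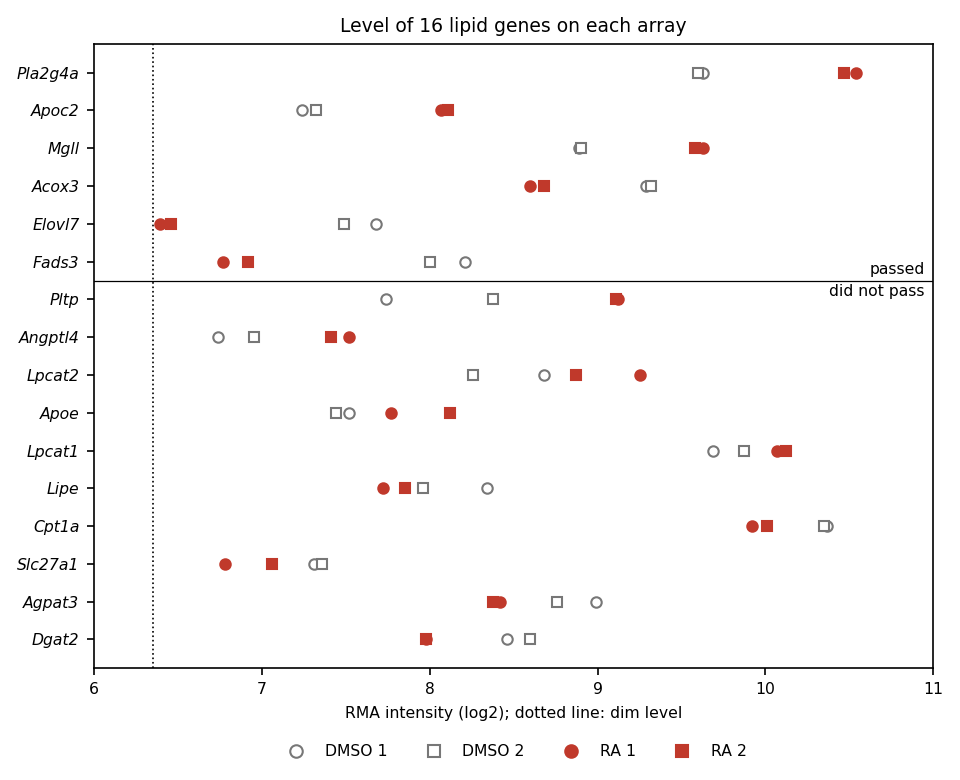
Log2 intensity (x axis) of 16 genes on the 2 DMSO arrays (open symbols) and the 2 retinoic acid arrays (filled symbols); the upper 6 genes passed limma's test and the lower 10 had the largest differences among those that did not. DMSO and retinoic acid arrays do not overlap in any of the 16 genes, which were picked by their test result or the size of their difference. Of all genes, 48.0% do not overlap either. Elovl7 with retinoic acid lies next to the dim level of 6.35.

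To show the regulatory sequence beside the values, the 250 bases before the annotated start were taken from RefSeq (GRCm38.p6) for the clearest genes that rose or fell. Windows were found for 41 of the 49 genes, 54 windows in all. The nuclear receptor hexamer AGGTCA, searched on both strands, is written in capitals. Pla2g4a has 1 hexamer, which begins 206 bases before the upstream of its 2 starts, and Apoc2 has 1, which begins 115 bases before its start. Elovl7 and Fads3 hold none, and neither do Mgll and Acox3.
Pla2g4a, chr1:149961291-149961540, minus strand: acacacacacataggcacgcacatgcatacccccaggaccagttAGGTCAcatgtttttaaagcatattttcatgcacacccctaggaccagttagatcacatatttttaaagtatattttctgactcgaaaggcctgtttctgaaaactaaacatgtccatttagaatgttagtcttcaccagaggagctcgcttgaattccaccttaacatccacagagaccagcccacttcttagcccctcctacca
Apoc2, chr7:19677942-19678191, minus strand: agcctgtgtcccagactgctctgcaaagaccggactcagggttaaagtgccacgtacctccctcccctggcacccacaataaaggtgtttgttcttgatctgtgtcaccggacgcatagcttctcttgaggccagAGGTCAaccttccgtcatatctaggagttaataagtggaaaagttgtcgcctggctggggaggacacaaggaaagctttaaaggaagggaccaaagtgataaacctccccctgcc
Elovl7, chr13:108214154-108214403, plus strand: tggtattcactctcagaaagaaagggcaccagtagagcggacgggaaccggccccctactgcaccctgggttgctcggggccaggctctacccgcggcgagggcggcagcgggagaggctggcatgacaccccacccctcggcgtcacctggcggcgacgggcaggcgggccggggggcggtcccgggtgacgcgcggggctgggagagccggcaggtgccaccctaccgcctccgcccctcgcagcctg
Fads3, chr19:10041298-10041547, plus strand: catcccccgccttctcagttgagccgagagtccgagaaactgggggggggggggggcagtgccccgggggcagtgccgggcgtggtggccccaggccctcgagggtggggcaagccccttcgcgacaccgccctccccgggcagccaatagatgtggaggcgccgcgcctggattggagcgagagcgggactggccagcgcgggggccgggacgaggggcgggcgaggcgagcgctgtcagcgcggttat
The bases printed for Elovl7 and Fads3 are 73.6% and 74.4% G or C, and those for Pla2g4a and Apoc2 43.2% and 52.0%. Mgll, which rose, has windows of 68.0% and 74.8%, and Acox3, which fell, 1 of 60.0%. AGGTCA was in 12 of the 54 windows of these genes (22.2%) and in 14.0% of all 32851 windows. It was in 2 of the 8 windows of the genes that passed and also in windows of genes that did not, such as Cpt1a, Plin2 and Acadm. Direct repeats of AGGTCA, which contain it by construction, were searched with spacers of 1, 2, 4 and 5 bases (AGGTCANAGGTCA, AGGTCANNAGGTCA, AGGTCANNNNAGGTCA and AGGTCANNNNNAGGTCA). None of the 54 windows held any, and of all windows 22 did. The sterol response element TCACNCCAC was in 0 of the 54 and in 1.05% of all windows. A match is a description of letters, and the lack of a match says nothing about a factor.

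Among the genes that make, lengthen and desaturate fatty acids, 2 of 12 fell, none rose and 10 did not pass (limma; 4 at an unadjusted p under 0.05). Fasn, fatty acid synthase, read 11.35 on both DMSO arrays and 11.26 and 11.55 with retinoic acid, a difference of 0.05 with a 95% interval of -0.26 to 0.37. Acaca, the cytosolic acetyl-CoA carboxylase that feeds it, read 9.53 and 9.49 with DMSO and 9.78 and 9.81 with retinoic acid. Its arrays do not overlap, and the difference of 0.28 ± 0.08 (SE) did not pass (limma adjusted p = 0.208). Acacb, the carboxylase of the mitochondrial surface, Scd1, a stearoyl-CoA desaturase, and Elovl3 lay under the dim level in both groups, so their differences of 0.07, 0.10 and 0.06 do not show whether they responded.

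The elongases did not move together. Elovl7, which lengthens long-chain acyl-CoA, read 7.68 and 7.49 with DMSO and 6.39 and 6.46 with retinoic acid. Both retinoic acid arrays were low, close to the dim level, so its difference of -1.17 ± 0.10 (SE; limma adjusted p = 0.0149) may be understated. Elovl1, Elovl5 and Elovl6, which act on very long saturated, polyunsaturated and palmitic chains, differed by 0.02, -0.12 and 0.20, and none passed. The difference between Elovl7 and its relatives was not tested.

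The Fads genes, front-end desaturases that lie side by side on chromosome 19, all lay lower with retinoic acid, by unequal amounts. Fads3, whose product desaturates sphingoid bases, read 8.21 and 8.00 with DMSO and 6.77 and 6.92 with retinoic acid. Both retinoic acid arrays were more than 1 unit below both DMSO arrays (difference -1.26 ± 0.11, SE, limma adjusted p = 0.0172). Fads1 read 9.35 and 9.42 against 9.04 and 9.25. Fads2 read 8.05 and 8.08 against 7.79 and 7.87. These makers of arachidonic acid from linoleic acid did not overlap between groups either, but differed by only -0.24 and -0.23 and did not pass (limma adjusted p = 0.433 and 0.317). The 95% intervals, -0.51 to 0.03 for Fads1 and -0.44 to -0.03 for Fads2, do not reach the interval of Fads3, -1.55 to -0.97. The inequality itself was not tested.

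**Figure D2:**
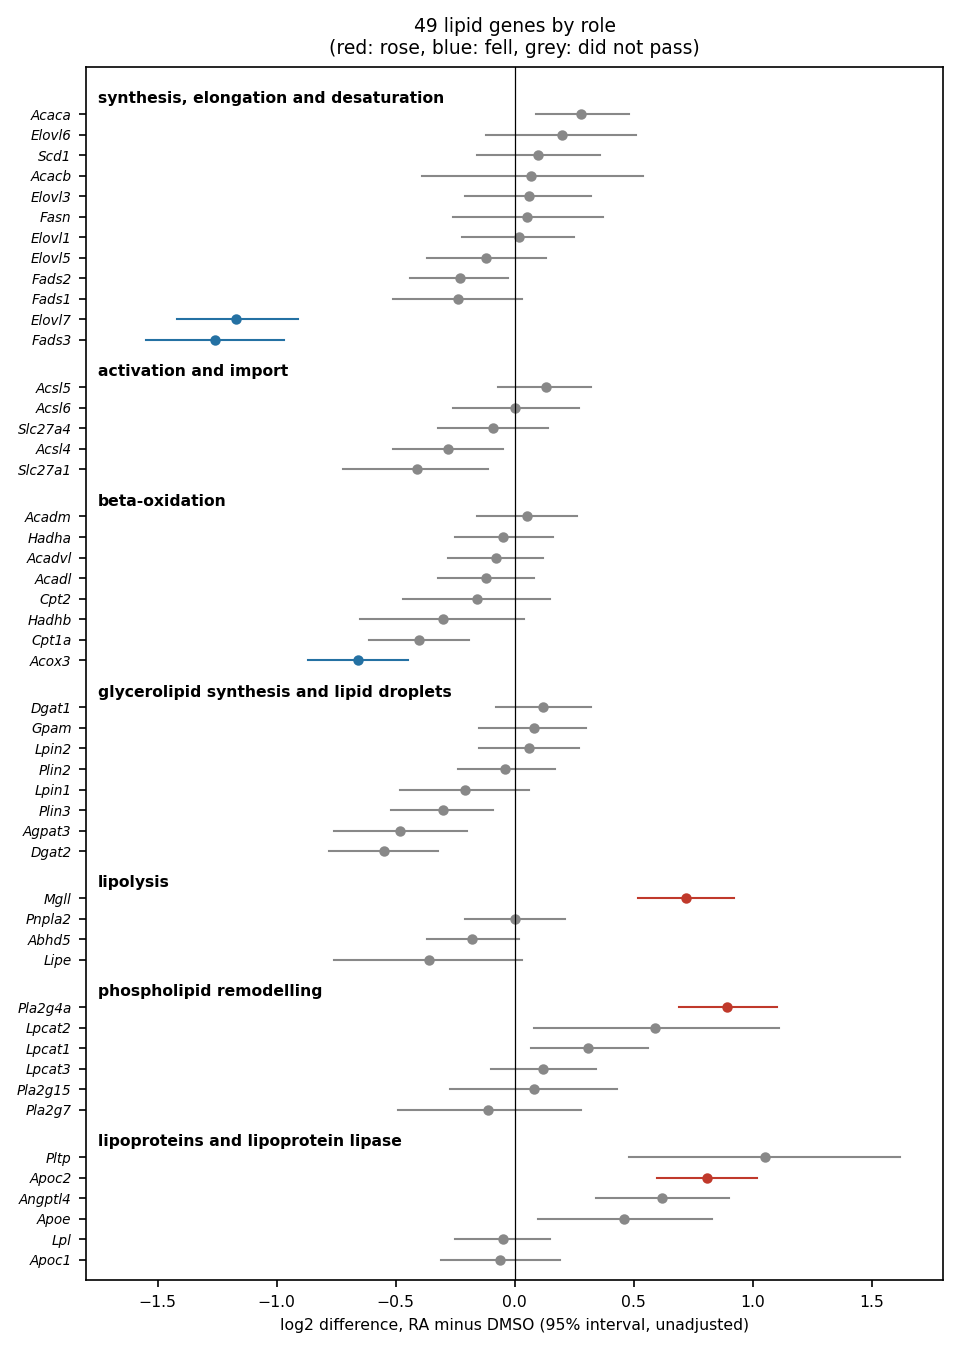
Log2 difference, retinoic acid minus DMSO (x axis), of the 49 genes by role, with limma's unadjusted 95% interval (n = 2 arrays per group). Red and blue points are the 3 genes that rose and the 3 that fell, and 33 of the 43 grey points lie within 0.3 of 0.

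Import and activation were represented by 5 genes, none of which passed (limma; 2 at an unadjusted p under 0.05). Slc27a1, a fatty acid transport protein, read 7.31 and 7.36 with DMSO and 6.78 and 7.06 with retinoic acid, lower on both arrays (difference -0.41 ± 0.12, SE, limma adjusted p = 0.234). Acsl4, the ligase that prefers arachidonic acid, differed by -0.28 and Acsl5 by 0.13. Acsl6 and Slc27a4 differed by 0.00 and -0.09, with overlapping arrays. A second probe set of Acsl6, under the dim level, differed by 0.17.

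Of 8 genes of fatty acid oxidation, Acox3 fell and 7 did not pass. Acox3, a peroxisomal oxidase of branched acyl-CoA, read 9.29 and 9.32 with DMSO and 8.60 and 8.68 with retinoic acid. Replicates agreed within 0.1 in each group, and the difference was -0.66 ± 0.08 (SE, limma adjusted p = 0.0335). Cpt1a, the carnitine palmitoyltransferase that controls entry into mitochondria, read 10.37 and 10.35 against 9.92 and 10.01. Both retinoic acid arrays were lower, and the difference of -0.40 ± 0.08 did not pass (limma adjusted p = 0.120; 95% interval -0.61 to -0.19). Cpt2, which completes that entry, differed by -0.16. The acyl-CoA dehydrogenase genes Acadl, Acadm and Acadvl differed by -0.12, 0.05 and -0.08, each with a 95% interval inside a 1.5-fold change in either direction.

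Hadha and Hadhb encode the subunits of the mitochondrial trifunctional protein and are transcribed away from each other on chromosome 5. Their 250-base windows share 228 bases, so only the window of Hadhb is printed. Whether these bases regulate either gene was not tested.
Hadhb, chr5:30155003-30155252, plus strand: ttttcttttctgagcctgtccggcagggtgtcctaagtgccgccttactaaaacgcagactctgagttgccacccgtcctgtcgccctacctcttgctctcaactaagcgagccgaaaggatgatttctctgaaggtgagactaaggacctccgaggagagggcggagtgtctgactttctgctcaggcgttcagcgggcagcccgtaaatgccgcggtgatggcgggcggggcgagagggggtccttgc
It holds no AGGTCA. Hadha read 11.82 and 11.88 with DMSO and 11.82 and 11.78 with retinoic acid, a difference of -0.05. Hadhb read 6.80 and 6.86 against 6.69 and 6.36. Its difference of -0.30 ± 0.13 (SE) was carried mostly by retinoic acid replicate 2, which lies next to the dim level. Neither passed (limma adjusted p = 0.858 and 0.429). In all, arrays of the groups did not overlap in 8 of 8 oxidation genes, 7 of them lower, against 48.0% of all genes without overlap and 23.0% lower without overlap. Most of these differences were small, with a median of -0.14. The 30 other oxidation genes described further below leaned the other way. In 22 of them the arrays did not overlap, 14 higher and 8 lower, with a median difference of 0.06.

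Genes of glycerolipid synthesis and lipid droplets, 8 in all, had none that passed (limma; 3 at an unadjusted p under 0.05), with a median difference of -0.12. Dgat2, which adds the last acyl chain of triglyceride, came nearest. It read 8.46 and 8.60 with DMSO and 7.98 on both retinoic acid arrays (difference -0.55 ± 0.09, SE, limma adjusted p = 0.069). It passed only when the test was restricted to brighter probe sets or to those with 1 symbol. Dgat1, an unrelated enzyme of the same step, read 7.78 and 7.84 against 7.92 and 7.94, a difference of 0.12 in the other direction. The opposition of the Dgat genes was not tested. Agpat3, an acyltransferase that makes phosphatidic acid, read 8.99 and 8.76 against 8.42 and 8.38 (difference -0.48 ± 0.11, limma adjusted p = 0.148).

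The droplet coat gene Plin2, usually a sensitive marker of stored lipid, read 10.84 and 10.93 with DMSO and 10.85 on both retinoic acid arrays. Its difference of -0.04 had a 95% interval of -0.24 to 0.17. Plin3, another coat protein, was lower on both retinoic acid arrays by 0.30 and did not pass (limma adjusted p = 0.213). Gpam, the mitochondrial acyltransferase of the entry step, and the phosphatidate phosphatase genes Lpin1 and Lpin2 differed by 0.08, -0.21 and 0.06. The second probe set of Lpin2, under the dim level, differed by 0.33.

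Triglyceride is broken down in a row by Pnpla2, Lipe and Mgll, and of this row only Mgll passed. Mgll, which also degrades the endocannabinoid 2-arachidonoylglycerol, read 8.89 and 8.90 with DMSO and 9.63 and 9.58 with retinoic acid. Its replicates lay within 0.05 of each other, and the difference was 0.72 ± 0.08 (SE, limma adjusted p = 0.0261). Pnpla2, the triglyceride lipase of the opening step, read 9.41 and 9.36 against 9.35 and 9.42, a difference of 0.00 with a 95% interval of -0.21 to 0.21. Its coactivator Abhd5 differed by -0.18. Lipe, hormone-sensitive lipase, read 8.34 and 7.96 against 7.72 and 7.85, lower without overlap by 0.36 ± 0.15, and did not pass (limma adjusted p = 0.411).

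In phospholipid remodelling, 1 of 6 genes rose and 5 did not pass. Pla2g4a, cytosolic phospholipase A2 alpha, read 9.63 and 9.60 with DMSO and 10.54 and 10.47 with retinoic acid. Both retinoic acid arrays were high, and the difference of 0.89 ± 0.08 (SE, limma adjusted p = 0.0167) was the largest rise that passed among the 49 genes. Lpcat2, which reacylates lysophosphatidylcholine and makes platelet-activating factor, read 8.68 and 8.26 against 9.25 and 8.87. The groups did not overlap, but replicates lay 0.38 to 0.42 apart, and the difference of 0.59 ± 0.20 did not pass (limma adjusted p = 0.305). Lpcat1, a relative of the same reaction, differed by 0.31 ± 0.09 and Lpcat3, the main enzyme for polyunsaturated chains, by 0.12; neither passed (limma adjusted p = 0.260 and 0.644). Pla2g7, the secreted hydrolase of platelet-activating factor, differed by -0.11. Pla2g15, the lysosomal phospholipase A2, differed by 0.08 and -0.02 in its 2 probe sets, neither of them called.

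Of 6 lipoprotein genes, 1 rose and 5 did not pass, with a median difference of 0.54 and a range of -0.06 to 1.05. Apoc2 read 7.24 and 7.32 with DMSO and 8.07 and 8.11 with retinoic acid. Replicates agreed within 0.1, and the difference was 0.81 ± 0.08 (SE, limma adjusted p = 0.0212). Lpl itself, the lipase that Apoc2 activates, read 13.40 and 13.35 against 13.34 and 13.31, a difference of -0.05 with a 95% interval of -0.25 to 0.15. Its dimmer probe set differed by -0.19. Angptl4, an inhibitor of lipoprotein lipase, read 6.74 and 6.95 against 7.52 and 7.41, higher on both retinoic acid arrays by 0.62 ± 0.11, and did not pass (limma adjusted p = 0.0843).

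Pltp, the phospholipid transfer protein, had the largest positive difference of the 49 genes and did not pass. It read 7.74 and 8.38 with DMSO and 9.12 and 9.11 with retinoic acid. The DMSO arrays lay 0.63 apart, and the difference of 1.05 ± 0.22 (SE, limma adjusted p = 0.125) was 0.74 without DMSO replicate 1 and 1.37 without DMSO replicate 2. Apoe, the main apolipoprotein of macrophages, read 7.52 and 7.44 against 7.77 and 8.12, a difference of 0.46 ± 0.14 that did not pass (limma adjusted p = 0.258). Apoe, Apoc1 and Apoc2 lie close together on chromosome 7. Apoc1, under the dim level in both groups, differed by -0.06.

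Across all 49 genes, the arrays of the groups did not overlap in 34 (69.4%), 13 higher and 21 lower, against 48.0% of all genes, 25.0% higher and 23.0% lower. All genes here include those under the dim level. Of the 43 genes that did not pass, 33 had a 95% interval inside a 1.5-fold change in either direction, while 10 had one that reached beyond it. The 33 include Acacb, Scd1, Elovl3 and Apoc1, under the dim level in both groups, whose intervals do not show whether they responded. These intervals are not adjusted for the number of genes. The 10 were Slc27a1, Cpt1a, Hadhb, Agpat3, Dgat2, Lipe, Lpcat2, Angptl4, Pltp and Apoe, of which 4 were higher and 6 lower in value.

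Other genes of lipid metabolism, in 7 lists that share no gene with the 49, gave 151 measured genes. Of these, 4 rose, against 1.28% of all genes, 8 fell, against 1.79%, and 139 did not pass, and the median difference was -0.02. Nearly all of these calls were lost with any 1 array left out, and all of them with the constant probe sets kept.

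The largest fall among them was in Slc27a3, a relative of Slc27a1 that activates long-chain fatty acids. It read 9.06 and 9.31 with DMSO and 6.19 and 6.61 with retinoic acid, a difference of -2.78 ± 0.17 (SE, limma adjusted p = 0.0077). Retinoic acid replicate 1 was under the dim level, so the 6.88-fold lower level is against background. In the same list of uptake and efflux genes (16 measured, 1 risen, 2 fallen), the sterol pumps parted. Abca1, which loads lipid onto apolipoprotein A-I, read 7.56 and 7.79 against 9.06 and 8.93 and rose 2.50-fold (limma adjusted p = 0.0156). Abcg1, which loads it onto HDL particles, read 10.41 and 10.40 against 9.60 and 9.71 and was 1.68-fold lower (limma adjusted p = 0.0279).

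The largest rise was in Abcd2, a peroxisomal importer of very long fatty acyl-CoA, in the list of other oxidation genes (30 measured, 2 risen, 1 fallen). Abcd2 read 10.01 and 10.05 with DMSO and 11.63 and 11.72 with retinoic acid, both far above the DMSO arrays, and rose 3.14-fold (difference 1.65 ± 0.08, SE, limma adjusted p = 0.00488). This peroxisomal rise stands beside the fall of Acox3, a peroxisomal oxidase. Eci1, a mitochondrial isomerase for unsaturated chains, rose 1.61-fold (limma adjusted p = 0.0464). Crat, carnitine acetyltransferase, was 1.77-fold lower in its brighter probe set (limma adjusted p = 0.0274) and differed by -0.01 in the other.

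Among 19 other genes of fatty acid synthesis, Hacd4, a dehydratase of the elongation cycle, rose 2.21-fold, from 6.65 and 6.87 to 7.89 and 7.92 (limma adjusted p = 0.0174), and 18 did not pass. The list of other phospholipid synthesis genes (24 measured) had 2 that fell, and both encode lysophospholipid acyltransferases. Lpcat4 read 9.59 and 9.32 against 8.33 and 8.42 and was 2.12-fold lower (limma adjusted p = 0.0270). Mboat1 read 9.95 and 10.15 against 9.11 and 9.04 and was 1.97-fold lower (limma adjusted p = 0.0235). They stand beside Lpcat1 and Lpcat2, whose values were higher with retinoic acid without passing.

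The list of other phospholipases, which includes genes of related name or family, had 22 measured genes. Of these, 2 fell, against 1.79% of all genes, and none rose, against 1.28%. Limma's unadjusted p was under 0.05 for 11 of them, and for 5335 of the 39720 probe sets. Pla2g12a, a secreted phospholipase A2, read 8.09 and 8.13 against 7.23 and 7.12 and was 1.91-fold lower (limma adjusted p = 0.0170), opposite to the rise of the cytosolic Pla2g4a. Plbd1, a lysosomal phospholipase B-like gene, was 1.67-fold lower (limma adjusted p = 0.0489). In the list of other glycerolipid and droplet genes 0 of 25 passed (limma; 3 at an unadjusted p under 0.05).

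**Figure D3:**
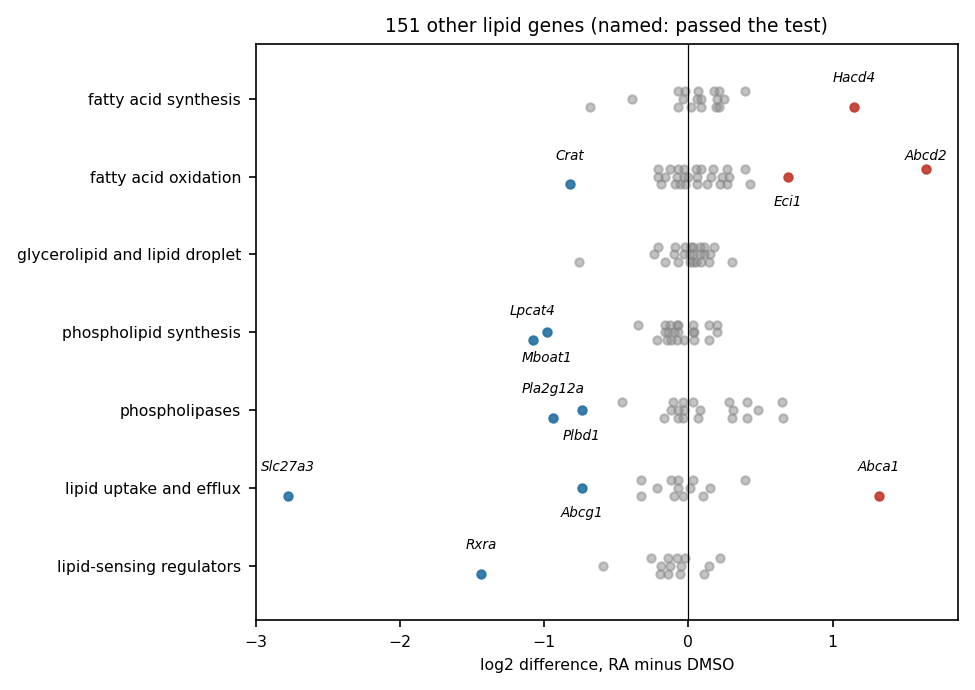
Log2 difference, retinoic acid minus DMSO (x axis), of 151 other lipid genes in 7 lists (y axis), 1 point per gene. The 4 genes that rose (red) and the 8 that fell (blue) are named, from Slc27a3 at -2.78 to Abcd2 at 1.65.

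Among 15 measured lipid-sensing regulators, 1 fell and 14 did not pass. The gene that fell was Rxra, the shared partner of the retinoic acid, PPAR and LXR receptors, which read 8.99 and 9.32 with DMSO and 7.60 and 7.83 with retinoic acid (2.71-fold lower, limma adjusted p = 0.0242). Of those that did not pass, 4 are named for their roles, a choice made after their values were seen. Pparg, the PPAR of fat cells and macrophages, differed by -0.26 and Nr1h3, which encodes LXR alpha, by -0.19. Srebf1, the activator of fatty acid synthesis genes, differed by -0.06, and Srebf2, its counterpart for cholesterol, by -0.59 ± 0.11 (SE); none of these 4 passed (limma adjusted p from 0.0965 to 0.825).

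**Figure D4:**
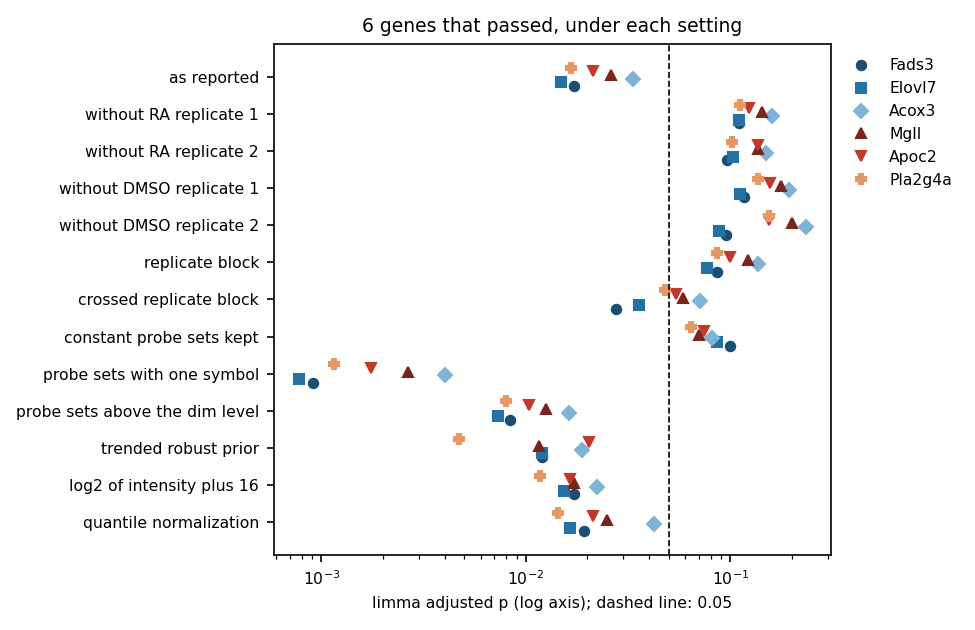
Limma adjusted p (x axis, log scale) of the 6 genes that passed, under each way of processing the data (y axis); the dashed line is the threshold of 0.05. All 6 lie to the right of the line when any 1 array is left out, with the replicate block and with the constant probe sets kept, and to the left under 5 other settings; the crossed block splits them.

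The plot of adjusted p by setting shows how far the calls depend on the number of arrays, on the replicate block and on the probe sets tested. The size of a difference is fixed by construction under the blocks, the prior and the choice of probe sets. Only leaving out 1 array, adding 16 to each intensity or quantile normalization could move it. Over the 12 other settings Fads3 ranged from -1.36 to -1.15, Elovl7 from -1.26 to -1.03 and Acox3 from -0.70 to -0.62. Mgll ranged from 0.69 to 0.74, Apoc2 from 0.75 to 0.85 and Pla2g4a from 0.86 to 0.93.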

How the data were processed

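The deposited values are intensities, 1 for each probe set on each of 4 Affymetrix whole-transcript arrays, which the authors made with Affymetrix Expression Console and RMA, per the submitters' processing notes. RMA corrects background, equalises arrays and summarises probes, so differences of dim genes are understated. Tool versions and the genome build were not given in the sources used here. The deposited linear intensities were turned into log2 values and not normalized again. Of 41345 probe sets, 1625 held a constant value (1624 of them the lowest intensity, 4.78), none with a symbol, and were left out, a choice made with earlier counts known. The dim level was set after the data were seen.

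The groups were compared in limma 3.58.1 (R 4.3.3; lmFit and eBayes, two-sided, no covariates), with Benjamini-Hochberg adjustment over 39720 probe sets; the code was tested on simulated data. Intervals use limma's moderated error with 4.76 degrees of freedom. Symbols came from the platform annotation, and all 49 genes were found in RefSeq GRCm38.p6. For a gene with several probe sets, the brightest on average stands for it. Genes and lists were chosen with earlier results of these data known. Named by rule were genes that passed (up to 4 per other list and direction), the 10 members with the largest differences that did not, and members whose probe sets disagree. The remaining members are named to account for each. Same-numbered replicates are not said to be paired. The number of arrays limits the precision.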

Additional observations from a re-analysis of the deposited data

How the results depend on the processing

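Counts of calls depended on the processing. All 12 alternatives kept the sign of the genes that passed (6 and 12) and of the 10 largest member differences that did not. Arrays of the groups do not overlap in these genes, so leaving out 1 array could not reverse a sign. The blocks, the prior and the choice of probe sets leave a difference unchanged. Signs of the remaining genes were not compared. As reported, 3 of the 49 genes rose, 3 fell, 4 and 8 of 151 other lipid genes rose and fell, and 831 probe sets passed. Without any 1 array, 0 and 0 of the 49 genes passed, as did 0 of the other lipid genes as risen and 0 to 1 as fallen, with 25 to 55 probe sets in all; the array left alone is then assumed to vary like the other group. The median of the 49 genes ranged from -0.05 to 0.01. Without RA replicate 1 that median was 0.01, and with quantile normalization -0.01, in place of -0.04. With the constant probe sets kept, limma called 0 probe sets (smallest adjusted p = 0.0535; 6260 at an unadjusted p under 0.05), so 0 and 0 of the 49 genes and 0 and 0 of the others. Among probe sets with 1 symbol, 1636 passed, with 5 of the 49 genes risen and 6 fallen (Angptl4, Pltp, Agpat3, Cpt1a and Dgat2 joining the 6). In that setting 7.2% of all 22180 genes passed, and 10 other lipid genes rose, with those that fell not given here. The cause of that rise in calls was not tested. Deviations of same-numbered arrays correlated at -0.251 over 39720 probe sets. With the replicate block, 161 probe sets passed, 0 and 0 of the 49 genes, and 1 and 2 of the others. With the numbers crossed, an alternative chosen after seeing the data, 457 passed, 1 and 2 of the 49 genes as risen and fallen, and 3 and 4 of the others. Above the dim level 4 of the lipid genes passed as risen and 4 as fallen, while 7.95% of 12772 genes passed in either direction. Acacb, Scd1, Elovl3 and Apoc1 lie under that level and were not tested there. The trended robust prior, the pseudocount of 16, quantile normalization and every probe set in place of 1 per gene left 3 and 3 calls. Signal over background limits Elovl7, Hadhb, Acacb, Scd1, Elovl3 and Apoc1.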
